A study of Cricetulus griseus with 24 samples.

Results

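The growth phase response of A1, a Chinese hamster ovary (CHO) line amplified with methotrexate, was described by comparing 3 stationary with 3 exponential cultures. These 6 samples were chosen by their phase and line labels from the 24 of the series, and 18548 of the 28037 genes in the count table could be tested. A1 is the high-producing progeny of the antibody-producing clone A0. A0 was made from CHO DG44 cells with a plasmid for the IgG heavy chain and a plasmid for the light chain and neomycin resistance, with the viral CMV promoter driving the transgenes, and A1 was selected from it in rising methotrexate. A1 is therefore 1 amplified line, and it cannot stand for amplified lines in general. Both A1 groups carried the same transgenes and the same history of G418 and methotrexate selection, and differed by label in growth phase only. A0 (4 cultures at each phase, with exponential libraries of the same culture summed) and CHO-S, a CHO line that makes no antibody (3 libraries at each phase, whose titles carry the name NDST, which the labels do not explain), were used only to ask where the A1 response differed. The further exponential libraries of A0 carry RLT in the title for cultures 1 and 2 and Duplicate for cultures 3 and 4. The labels number the A1 cultures 1 to 3 at each phase but do not say that a number marks 1 flask followed over time.

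In batch culture, CHO cells first divide while nutrients last and then stop as nutrients run down and waste products build up. Cells short of amino acids or with a loaded endoplasmic reticulum (ER) phosphorylate the initiation factor eIF2, which slows translation in general and favours the transcription factor ATF4. ATF4 and its partners then switch on amino acid synthesis, amino acid import, tRNA charging and stress genes, together called the integrated stress response. Secretory cells also have an unfolded protein response, in which ER chaperones are induced when unfolded protein accumulates. In these bulk samples, a change in the cells that make up a culture and a change in RNA per cell cannot be told apart.

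Counts on genes ranged from 11823294 to 13060749 per exponential library and from 6532373 to 12140773 per stationary library of A1, with the lowest in stationary culture 1. Libraries of the same phase differed by more than sampling noise (chi-square per degree of freedom 2.58 to 4.71). None was treated as a second sequencing of another, but this measure cannot tell whether they came from separate flasks. The share of reads not aligned was 7.49% to 8.65% at exponential and 10.3% to 11.5% at stationary phase, and the share outside genes was 11.9% to 14.05% and 15.4% to 16.04%. These shares did not overlap between phases, and their part in the differences below was not tested. The summed level of 6 mesenchymal markers was 5237 to 6237 CPM (counts of a gene relative to all counts of its library, here without TMM) in all 6 libraries. Of 3 granulosa markers, Fshr had no count in any library, while Amh had 1.44 to 1.99 CPM and Inha 6.43 to 7.65 CPM. Of 7 blood markers, Cd3e, Hbb and Alas2 had no count, while Cd68, a lysosomal glycoprotein, went from 2.83 to 3.22 CPM at exponential phase to 8.65 to 12.9 CPM at stationary phase. The 4 epithelial markers summed to 2.20 to 4.05 CPM. The first principal component held 76.4% of the variance and separated the phases, and the second held 9.49%.

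At stationary phase, 6196 of 18548 genes tested (33.4%) differed from exponential phase with an adjusted p-value under 0.05 (quasi-likelihood test of edgeR, adjusted after Benjamini and Hochberg). Rises made up 2895 (15.6%) and falls 3301 (17.8%). The rises were the larger changes. Gene levels below are CPM after TMM normalization. At least 2-fold differences were seen in 813 genes (4.38%), 647 of them higher (3.49%) and 166 lower (0.895%). The median size of a rise was 0.54 on the log2 scale and that of a fall 0.37, and 95.0% of the falls were under 2-fold. Stationary and exponential libraries did not overlap for 7953 genes (42.9%). Of the 2-fold rises, 238 had a mean under 1 CPM and 174 a mean of at least 5 CPM. Scaled by total counts without TMM, the split turned to 3554 higher and 2612 lower, which is 57.6% higher against 46.7% with TMM. DESeq2 called 5046 genes, but only 538 with a 2-fold difference.

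**Figure D1:**
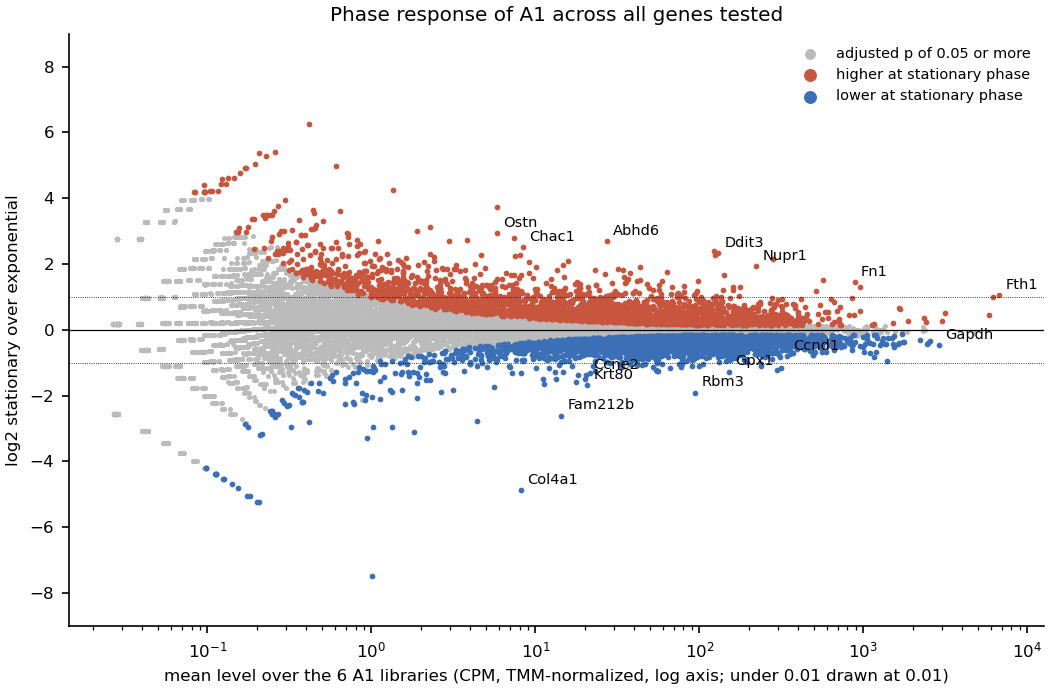
Each point is 1 of the 18548 genes, with the mean TMM-normalized level over the 6 A1 libraries on the x axis (CPM, log axis) and the log2 change from exponential to stationary phase on the y axis. Dotted lines mark 2-fold, and rises past 2-fold (647) outnumber falls (166).

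The 12 largest rises were taken among genes with a mean of at least 5 CPM over the 6 libraries. They also had to pass the test and show no overlap between phases. Ostn, which encodes the secreted peptide osteocrin, stood at 1.01, 1.83 and 1.25 CPM in the 3 exponential cultures and at 6.63, 12.3 and 11.7 CPM in the stationary cultures. Its log2 change was 2.95 (SE 0.24, adjusted p = 3.1e-11 from edgeR). Abhd6, a monoacylglycerol hydrolase, had 6.25, 8.97 and 6.25 CPM and then 55.9, 40.9 and 44.7 CPM, a log2 change of 2.71 (SE 0.13, adjusted p = 2.5e-16 from edgeR). In neither gene did the phases overlap, which the choice of genes required. Cd36, a receptor for fatty acid uptake, rose from 27.6 to 51.2 CPM to 164 to 235 CPM, a log2 change of 2.38. Fa2h, which hydroxylates fatty acids, changed by 2.26, and Myl9, a myosin light chain gene, by 2.05. Sema3a, a secreted guidance protein, changed by 1.97. The stress genes in this group were Chac1 (2.52), Ddit3 (2.34), Trib3 (2.28), Atf3 (2.10) and Nupr1 (1.94), which are taken up with the integrated stress response.

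The chemokine gene Cxcl3 was also among the largest rises, but it varied widely between cultures. It had 46.4, 217 and 43.3 CPM at exponential phase and 751, 273 and 344 CPM at stationary phase, a log2 change of 2.15 (SE 0.34, adjusted p = 6.1e-06 from edgeR). The phases did not overlap, which the choice of genes required, yet exponential culture 2 lay close to stationary culture 2. Its relative Cxcl1 had 11.6, 72.4 and 7.03 CPM and then 104, 15.3 and 18.3 CPM. As for Cxcl3, exponential culture 2 and stationary culture 1 were the highest of their phase. Cxcl1 did not pass the test (log2 change 0.47, adjusted p = 0.53 from edgeR).

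The largest falls were led by Fam212b, with 23.6, 25.4 and 24.8 CPM at exponential and 3.98, 4.64 and 3.39 CPM at stationary phase (log2 change -2.61, SE 0.14, adjusted p = 2.2e-15 from edgeR). Rbm3, an RNA-binding protein known for its induction by cold, fell from 121 to 166 CPM to 33.7 to 43.2 CPM (log2 change -1.91). The cyclins E, which start S phase, fell together, Ccne2 by 1.38 and Ccne1 by 1.29 on the log2 scale, and Ung, the uracil-DNA glycosylase, fell by 1.38. Ung is an example of a tight change, with 26.4, 26.5 and 26.7 CPM in the exponential cultures and 8.69, 10.9 and 10.5 CPM in the stationary cultures. Others in this group were Rasl11a (-1.74), the keratin gene Krt80 (-1.68), the netrin receptor gene Unc5c (-1.49), the acetylcholine receptor subunit gene Chrnb1 (-1.32) and Apln, which encodes apelin (-1.29). Btg2, known as a brake on proliferation, also fell, by 1.32. A further 3 genes that carry a LOC number instead of a gene symbol met the same limits and would rank among the rises, and 3 among the falls.

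**Figure D2:**
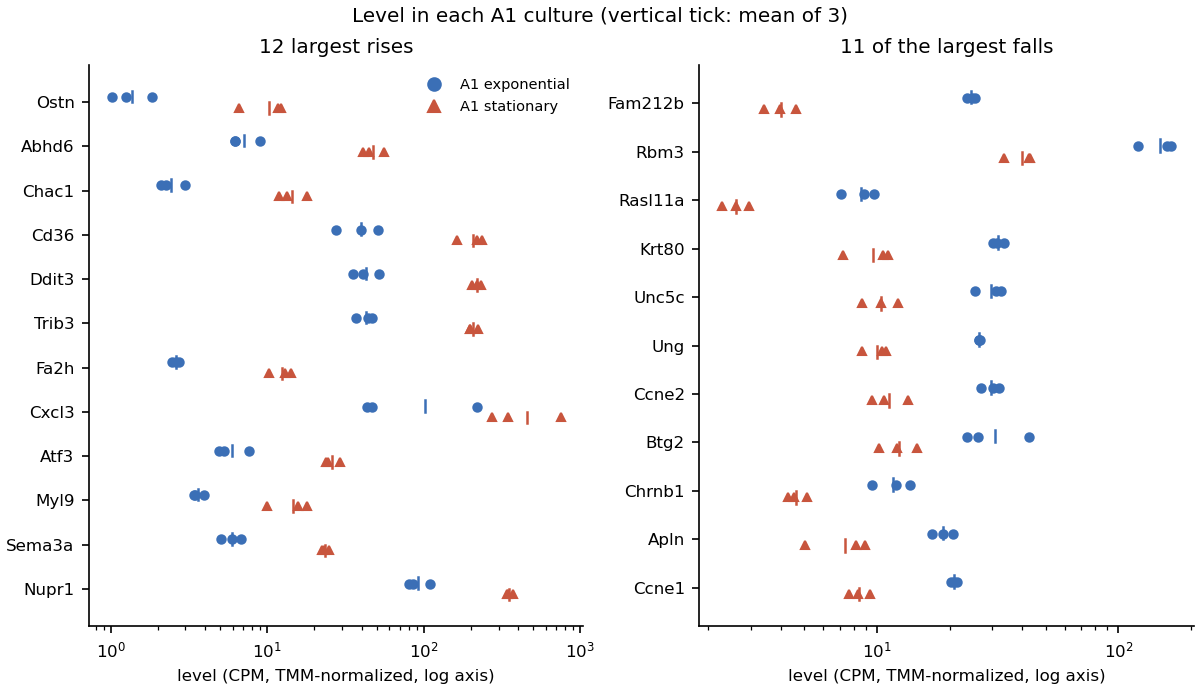
Levels of the 12 largest rises (left) and of 11 of the largest falls (right) in each A1 culture, in TMM-normalized CPM on a log axis, with exponential cultures as circles, stationary cultures as triangles and the mean of 3 as a vertical tick. The phases do not overlap for any gene shown, which the choice of genes required, and Cxcl3 has the widest spread within a phase.

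The integrated stress response had the highest median change of the 29 lists. Of 32 members tested, 26 were higher at stationary phase, 1 was lower and 5 did not pass, with a median log2 change of 0.75 against 0.03 over all genes tested. At least 2-fold rises were seen in 13 of them, of which Cbs and Slc7a3 had a mean under 1 CPM and were named after their values were seen. Among genes with a mean of at least 5 CPM, 50.9% passed the test and the median was -0.04. Higher were 21.05% of them and lower 29.8%.

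Ddit3, which encodes the stress transcription factor CHOP, had 41.2, 52.0 and 35.5 CPM at exponential and 230, 204 and 218 CPM at stationary phase (log2 change 2.34, SE 0.09, adjusted p = 7.9e-19 from edgeR). Trib3, a pseudokinase induced by CHOP and ATF4, had 36.8, 46.5 and 44.0 CPM and then 223, 198 and 197 CPM. Atf5, a transcription factor of the same pathway, had 289, 276 and 312 CPM and then 774, 930 and 808 CPM (log2 change 1.52). In all of these the stationary cultures lay far above the exponential cultures. Nupr1, a stress-induced chromatin protein, went from 80.1 to 110 CPM to 342 to 370 CPM, and Chac1, an enzyme that degrades glutathione, from 2.11 to 2.96 CPM to 11.8 to 17.8 CPM. Other members, named after their values were seen, show the reach of the rise. Atf4 itself changed by 1.17 (from 299.6 to 333.5 CPM to 680.4 to 737.4 CPM). Asns, the asparagine synthetase, changed by 1.00, and Pycr1, an enzyme of proline synthesis, by 1.49. The serine synthesis enzymes moved less. Psat1 changed by 0.31, while Phgdh (0.04) and Psph (0.11) did not pass. Shmt2, the mitochondrial serine hydroxymethyltransferase, was the 1 member that was lower (-0.20). Sesn2, a nutrient and stress sensor of the same list, did not pass in A1, with 42.5 to 52.5 CPM at exponential and 46.5 to 60.7 CPM at stationary phase.

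Of 20 cytosolic aminoacyl-tRNA synthetases, which load amino acids onto tRNA, 12 were higher and 3 lower (median 0.28). These shares were 60% and 15%, where genes with a mean of at least 5 CPM gave 21.05% and 29.8%. Sars had 190, 192 and 206 CPM at exponential and 338, 343 and 347 CPM at stationary phase, a log2 change of 0.81 (SE 0.06, adjusted p = 8.8e-13 from edgeR). Aars (0.75), Lars (0.70) and Yars (0.65) changed by similar amounts. The synthetases that fell, named after their values were seen, were Rars (-0.42), Qars (-0.26) and Kars (-0.20). Amino acid and nutrient transporter genes had 13 of 27 higher (48.15%) and 4 lower (14.8%), with a median of 0.29, some of them shared with the stress list. Slc3a2, the common heavy chain of several amino acid exchangers, had 230, 250 and 255 CPM and then 428, 422 and 429 CPM (log2 change 0.80). The glycine transporter Slc6a9 changed by 1.02, the cationic amino acid transporter Slc7a1 by 0.68 and the neutral amino acid transporter Slc1a4 by 0.68.

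Of 42 members of the unfolded protein response and ER-associated degradation list, 21 were higher, 3 lower and 18 not past the threshold (median 0.16), and none reached 2-fold. The 57.1% past it compare with 50.9% of genes with a mean of at least 5 CPM. Higher were 50% and lower 7.14%, against 21.05% and 29.8% of those genes. Hspa5, which encodes the chaperone BiP, had 3867, 4665 and 3836 CPM at exponential phase and 7654, 7850 and 8954 CPM at stationary phase (log2 change 0.98, SE 0.06, adjusted p = 8.5e-14 from edgeR). The phases were far apart, and exponential culture 2 was the highest of its phase. Herpud1 and Sel1l, of the machinery that removes misfolded proteins, changed by 0.97 and 0.70, and Ern1, which encodes the ER stress sensor IRE1, by 0.75. Calr, the lectin chaperone calreticulin, named after its values were seen, stood at 2334 to 2461 CPM and 2287 to 2513 CPM, with overlapping phases. P4hb, a protein disulfide isomerase, also named after its values were seen, was lower (-0.25). For the translocon and ER to Golgi transport, 17 of 49 genes were higher and 10 lower, with a median of -0.02 (0.04 without TMM). The 55.1% past the threshold were close to the 50.9% of genes with a mean of at least 5 CPM. Ssr3 (0.38) and Spcs2 (0.42), of the translocon and the signal peptidase, rose, and Tmed2 (-0.31) and Srp9 (-0.31), of vesicle transport and the signal recognition particle, fell. Without exponential culture 1, 9 of the 49 were higher, against 17, and without exponential culture 3, 6 were lower, against 10.

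Genes of DNA replication and mitosis fell almost as a block. Of 40 replication genes, 36 were lower and none higher, with a median log2 change of -0.56. Lower were 90%, against 29.8% of genes with a mean of at least 5 CPM. Of 43 mitosis and kinetochore genes, 39 (90.7%) were lower and none higher (median -0.46). Without any 1 of the 6 libraries, 34 to 36 and 36 to 41 of them were lower. Pcna, the sliding clamp of DNA polymerase, had 331, 320 and 317 CPM and then 146, 160 and 149 CPM (log2 change -1.09, SE 0.06, adjusted p = 2.3e-15 from edgeR). Tk1, the thymidine kinase, changed by -1.21 and Rrm2, a subunit of ribonucleotide reductase, by -1.04, and these with Pcna were the only 2-fold falls in the replication list. Mcm5, of the replicative helicase, went from 389 to 400 CPM to 213 to 237 CPM. Among mitosis genes, Mybl2, a transcription factor of cell cycle genes, had 429, 431 and 438 CPM and then 192, 201 and 189 CPM (log2 change -1.16). Plk1, a mitotic kinase, changed by -0.79, Anln, of the cytokinetic ring, by -0.78 and Ect2, which starts cytokinesis, by -0.77. The main mitotic kinase gene Cdk1, named after its values were seen, overlapped between phases (151 to 164 against 144 to 152 CPM).

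Regulators of G1 and targets of p53 moved in both directions, with 10 of 34 higher and 18 lower. These shares were 29.4% and 52.9%, where genes with a mean of at least 5 CPM gave 21.05% and 29.8%. Gadd45a, a growth arrest gene induced by stress, had 49.8, 56.6 and 48.8 CPM at exponential and 163, 124 and 148 CPM at stationary phase (log2 change 1.48, SE 0.08, adjusted p = 5.0e-15 from edgeR). Ccnd1, the G1 cyclin D1, fell from 405 to 462 CPM to 233 to 257 CPM, a log2 change of -0.80. Ccng1, a target of p53, had 74.7, 81.2 and 81.7 CPM and then 30.2, 34.0 and 35.1 CPM (log2 change -1.25, SE 0.07, adjusted p = 4.7e-14 from edgeR). The following were named after their values were seen. Cdkn1a (-0.53) and Mdm2 (-0.54), both p53 targets, were also lower. Among inhibitors of the cell cycle, Cdkn2c rose from 46.9 to 66.1 CPM to 93.9 to 171.7 CPM (log2 change 1.19) and the quiescence gene Ccng2 changed by 1.42.

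Of 35 proteasome genes, 30 (85.7%, against 29.8% of genes with a mean of at least 5 CPM) were lower and 1 higher (median -0.33). The exception was Nfe2l1, a transcription factor that drives proteasome genes, which had 201, 224 and 227 CPM and then 405, 330 and 384 CPM (log2 change 0.78). Psma2, Psmd2 and Psmc3, subunits of the core and the regulatory particle, changed by -0.54, -0.49 and -0.51. Of 33 heat shock and chaperonin genes, 20 (60.6%) were lower and 3 higher (median -0.27). The chaperonin subunits Cct8 (-0.63), Tcp1 (-0.53) and Cct5 (-0.49) fell together, and Hspa14, a ribosome-associated chaperone, by 0.81. For ribosome biogenesis, 27 of 37 genes (73.0%) were lower and 1 higher (median -0.30). The nucleolar genes Fbl (-0.53), Nop14 (-0.55), Ncl (-0.43) and Mybbp1a (-0.39) lay below their exponential levels in every stationary culture.

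Ribosomal protein genes showed no common direction. Of 72, 15 were higher and 9 lower (median 0.05), shares of 20.8% and 12.5% where all genes gave 15.6% and 17.8%. Without TMM the count was 28 higher and 5 lower, and without exponential culture 1 it was 8 and 5. Rps2 fell by 0.38 and Rpl10, Rpl37 and Rps20 changed by 0.34, 0.38 and 0.30. Genes of this family have many near-identical copies in the genome, and reads that fit more than 1 place were not counted.

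**Figure D3:**
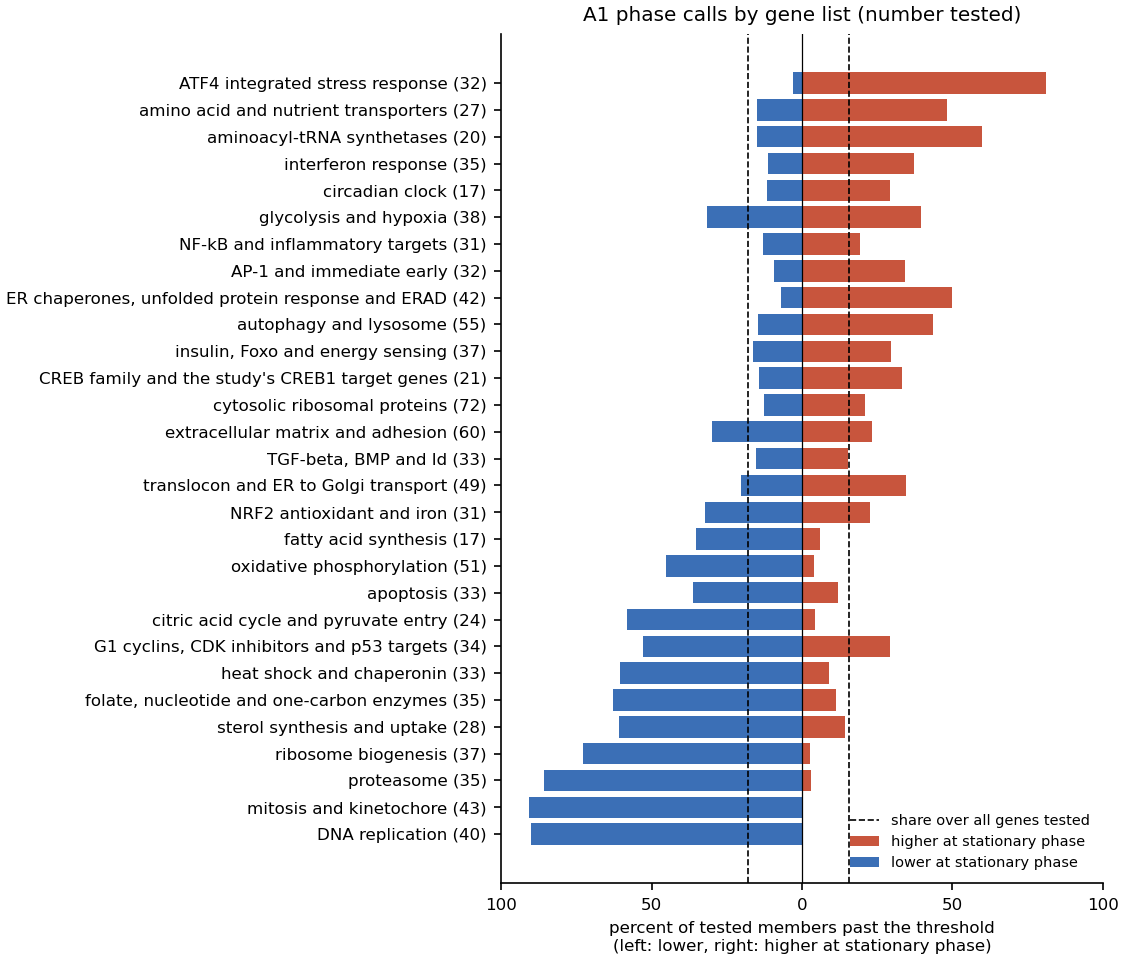
For each of the 29 gene lists, the bars give the percent of tested members past the threshold in A1, lower at stationary phase to the left and higher to the right, ordered by the median log2 change. Dashed lines mark the shares over all genes tested (17.8% and 15.6%), and the stress response, replication, mitosis and proteasome lists lie farthest out.

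These list counts were lower when all 6 groups of the series shared 1 fit, in which 2470 genes passed over the whole table against 6196. In that fit 17 stress response genes and 9 ER chaperone genes were higher. The replication list then had 23 lower, mitosis 24, proteasome 12, ribosome biogenesis 10 and heat shock and chaperonin 6. It left 9 lower for oxidative phosphorylation, 7 for the citric acid cycle, 8 for sterol synthesis, 9 for folate enzymes and 2 for apoptosis. The translocon list had 2 higher and 1 lower, the CREB list 1 and 1, and the ribosomal protein list none either way.

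Of 51 genes of oxidative phosphorylation 23 were lower, 2 higher and 26 not past the threshold (median -0.15). The 49.0% past the threshold were close to the 50.9% of genes with a mean of at least 5 CPM. Lower were 45.1%, against 29.8% of those genes. Of 24 genes of the citric acid cycle and pyruvate entry 14 were lower (58.3%) and 1 higher (median -0.23). Atp5f1 (-0.57) and Atp5a1 (-0.52), of ATP synthase, Ndufa9 (-0.60), of complex I, and Sdhd (-0.48), of complex II, were each lower in all stationary cultures. In the citric acid cycle, Idh3a (-0.52), Dlst (-0.46), Mdh2 (-0.48) and the pyruvate dehydrogenase subunit Pdhb (-0.49) behaved alike in size. The glycolysis and hypoxia list was split, with 15 of 38 higher and 12 lower, shares of 39.5% and 31.6%. Genes with a mean of at least 5 CPM gave 21.05% and 29.8%. Gapdh, a glycolytic enzyme, had 3312, 3380 and 3348 CPM and then 2346, 2537 and 2436 CPM (log2 change -0.46, SE 0.05, adjusted p = 3.0e-09 from edgeR), so that this common reference gene was not level between the phases. Pkm (-0.43) and Ldha (-0.50), named after their values were seen, changed by similar amounts. Among the members that rose, Pdk4, a kinase that shuts pyruvate out of the citric acid cycle, had 23.7, 22.3 and 21.6 CPM and then 65.9, 58.3 and 68.0 CPM (log2 change 1.505). The growth factor gene Vegfa changed by 1.16, and Ddit4, an inhibitor of mTORC1, by 0.99.

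Of 28 genes of sterol synthesis and uptake, 17 were lower and 4 higher (median -0.30). These shares were 60.7% and 14.3%, where genes with a mean of at least 5 CPM gave 29.8% and 21.05%. Ebp had 240, 231 and 259 CPM and then 129, 123 and 138 CPM (log2 change -0.90, SE 0.06, adjusted p = 7.5e-13 from edgeR), and Nsdhl (-0.85) and Sc5d (-0.68), also late enzymes of cholesterol synthesis, changed to a like degree. Of 17 fatty acid synthesis genes 6 were lower, 1 higher and 10 not past the threshold. The 41.2% past it compare with 50.9% of genes with a mean of at least 5 CPM. Acly (-0.54), Acss2 (-0.67) and Fasn (-0.35) fell, and Dgat2, which makes triglyceride, rose from 13.2 to 16.01 CPM to 31.4 to 36.5 CPM (log2 change 1.203).

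Folate, nucleotide and one-carbon enzymes are the pathway that methotrexate acts on. Of 35 tested, 22 were lower and 4 higher (median -0.28), with 2 higher when exponential culture 3 or stationary culture 3 was left out. With all 6 libraries these shares were 62.9% and 11.4%, where genes with a mean of at least 5 CPM gave 29.8% and 21.05%. Tyms, the thymidylate synthase, had 198, 200 and 195 CPM and then 119, 122 and 118 CPM (log2 change -0.72, SE 0.06, adjusted p = 1.9e-11 from edgeR). The purine enzymes Atic and Paics changed by -0.53 and -0.49. Mthfd2, a mitochondrial folate enzyme that is also an ATF4 target, rose by 0.71.

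Lysosome and autophagy genes rose on balance, with 24 of 55 higher and 8 lower (median 0.12). These shares were 43.6% and 14.55%, where genes with a mean of at least 5 CPM gave 21.05% and 29.8%. Without exponential culture 1, exponential culture 3 or stationary culture 2, 5 were lower. Gabarapl1, of the autophagosome membrane, had 42.5, 41.2 and 45.6 CPM and then 88.1, 90.5 and 95.1 CPM (log2 change 1.08, SE 0.07, adjusted p = 1.7e-13 from edgeR). The autophagy receptor Sqstm1 changed by 0.92 and the lysosomal genes Gaa and Psap by 0.70 and 0.56. Of 31 antioxidant and iron genes, 7 were higher and 10 lower, shares of 22.6% and 32.3% that lay near that background. Fth1, the ferritin heavy chain, had 4255, 4192 and 4748 CPM and then 8272, 9322 and 9769 CPM (log2 change 1.05, SE 0.05, adjusted p = 1.5e-15 from edgeR). Gpx1, a glutathione peroxidase, fell by 1.27 and Nqo1, a quinone reductase, by 1.14, while Nfe2l2, which encodes the regulator NRF2, rose by 0.68. Of the 37 genes of insulin signalling, Foxo and energy sensing, 11 were higher and 6 lower, with 3 lower when exponential culture 3 was left out. The 45.95% past the threshold compare with 50.9% of genes with a mean of at least 5 CPM. Klhl24 (1.19) and the insulin receptor gene Insr (0.92) rose, and Igfbp4, which binds insulin-like growth factors, fell by 0.48.

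Matrix genes moved both ways, with 14 of 60 higher and 18 lower, shares of 23.3% and 30%. All genes gave 15.6% and 17.8%. Those with a mean of at least 5 CPM gave 21.05% and 29.8%, so the list lay near that background. Fn1, fibronectin, had 483, 466 and 475 CPM and then 1314, 1158 and 1406 CPM (log2 change 1.45, SE 0.06, adjusted p = 5.7e-18 from edgeR). The metalloprotease gene Mmp14 changed by 0.89, the collagen cross-linking enzyme gene Loxl2 by 1.68 and the thrombospondin gene Thbs1 by 0.93. The lowest value of the list, -4.88 for the basement membrane collagen gene Col4a1, rested on 1 library. Exponential culture 1 had 46.7 CPM, and the other 5 libraries had 0.312 to 0.589 CPM. Without that culture the log2 change was 0.65 (adjusted p = 0.49 from edgeR). Exponential culture 1 held 8 genes at over 5 times the level of any other A1 library, with at least 20 counts, of which 6 passed the test. No other A1 library held any. Among them were Col4a1 and, named after their values were seen, Col4a2, Fabp4 and Il33.

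The interferon response list had 13 of 35 higher and 4 lower (median 0.19), among them Trim25 (1.02), Mx1 (0.72) and Irf9 (0.67). Of 31 targets of NF-kB and inflammation, 6 were higher and 4 lower, and the 32.3% past the threshold were close to the 33.4% of all genes. Ptgs2, the inducible cyclooxygenase, changed by 1.03, and Icam1, an adhesion molecule, by -0.68. Csf2, a cytokine gene, had at most 0.348 CPM at exponential and 0.814 to 4.86 CPM at stationary phase. This list depended on single cultures: 14 were higher without exponential culture 2 and 4 without exponential culture 3 or stationary culture 1. The AP-1 and immediate early list had 11 of 32 higher and 3 lower (1 lower without exponential culture 2, stationary culture 2 or stationary culture 3), among them Atf3 (from 4.89 to 7.67 CPM to 23.7 to 29.3 CPM), Fosl2 (1.28), Myc (0.70) and, among the falls, Etv4 (-0.87). Of 33 TGF-beta, BMP and Id genes 5 were higher and 5 lower, shares of 15.2% each that were no larger than those of all genes (15.6% and 17.8%). Those past the threshold included Tgfbr3 (0.57), Tgif1 (0.72), Ltbp1 (-0.80) and Tgfb1 (-0.48). Of 33 apoptosis genes 12 were lower and 4 higher (median -0.22). These shares were 36.4% and 12.1%, where genes with a mean of at least 5 CPM gave 29.8% and 21.05%. Both Bcl2l11, which encodes the death activator BIM (0.61), and Cflar, an inhibitor of caspase 8 (0.66), rose, and the death activators Bad (-0.77) and Bak1 (-0.41) fell. Among 17 clock genes, 5 were higher, with Nfil3 (0.99), Npas2 (0.84) and Bhlhe40 (0.43), and 2 lower, with the repressor Nr1d1 (-0.47). Of the interferon, AP-1 and clock lists 48.6%, 43.75% and 41.2% passed, no more than the 50.9% of genes with a mean of at least 5 CPM.

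The study's interest lay in CREB1 and genes that it regulates. Creb1 itself had 79.6, 84.7 and 78.4 CPM at exponential and 88.7, 88.2 and 80.1 CPM at stationary phase, with overlapping phases (log2 change 0.08, SE 0.07, adjusted p = 0.38 from edgeR). Of 21 genes of the CREB family and the named targets, 7 were higher and 3 lower (median 0.08), and 4 were higher without exponential culture 2. The 47.6% past the threshold were close to the 50.9% of genes with a mean of at least 5 CPM. Jun, a subunit of AP-1, had 63.0, 69.8 and 67.9 CPM and then 101, 92.8 and 125 CPM (log2 change 0.67). Ndc80, of the kinetochore, and Nolc1, a nucleolar protein, were lower (-0.61 and -0.38). Hmox1, heme oxygenase, stood at 1043 to 1104 CPM and 1099 to 1228 CPM, with overlapping phases (log2 change 0.15, adjusted p = 0.028 from edgeR). Xpc (-0.14) and Etv3 (0.07) did not pass (adjusted p = 0.13 and 0.56 from edgeR), and Creb5, a relative of Creb1, rose by 0.59.

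The parental clone A0 gave a phase response of mostly the same direction. Of 6189 genes called in A1 and tested in A0, 5497 (88.8%) had the same sign in A0. Of 4186 called in both lines, 4048 moved the same way, with a median size of 0.46 in A1 and 0.73 in A0 on the log2 scale, and 82.0% of these were smaller in A1. Only genes that passed in both lines entered, and passing takes a larger change where cultures vary more. The part of this choice in the medians and in the 82.0% was not tested. The difference itself, tested as the interaction of line and phase, passed for 1873 of 20953 genes (8.94%), 1056 with a higher response in A1 (5.04%) and 817 with a lower one (3.9%). Of the 1872 among them that were tested in A1, 729 moved the same way in both lines but by less in A1, and 14 by more. A further 771 were called in A0 alone, 212 in A1 alone and 134 in opposite directions. Culture variation was larger in this comparison (biological coefficient of variation 0.111) than within A1 (0.0586). Reads not aligned made up 4.22% to 4.85% of exponential A0 libraries of cultures 1 and 2, and 3.13% to 3.39% of those of cultures 3 and 4. At stationary phase these shares were 8.91% to 9.41% and 6.43% to 6.97%. The part of this split in the differences was not tested. The count fell to 1003 without stationary culture 2 of A1, to 1165 without exponential culture 3 and to 1221 without exponential culture 2. With only the first exponential library of each A0 culture it was 2359, 1170 higher and 1189 lower. The excess of higher over lower responses was thus not kept in that setting. CPM of A0 and CHO-S below are scaled together with A1, which moves A1 values slightly.

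Many replication and mitosis genes fell less in A1 than in A0. The interaction passed for 25 of 40 replication genes and 22 of 43 mitosis genes, all with the higher response in A1, and the medians were -0.56 and -0.46 in A1 against -1.20 and -0.98 in A0. Among the 10494 genes with a mean of at least 5 CPM in A1, the interaction passed for 939 with a higher and 727 with a lower response. Without stationary culture 2 of A1 the replication count was 15, and the mitosis count was 10 without exponential culture 3 or stationary culture 1. Pcna, for example, differed by 0.92 (adjusted p = 0.0023 from edgeR), with A0 going from 312 to 528 CPM to 88.7 to 118 CPM. The interaction passed with a lower response in A1 for 11 of 32 integrated stress response genes, 10 of 20 tRNA synthetases and 19 of 42 ER chaperone genes, and with a higher response for none. The tRNA synthetase count was 6 without exponential culture 2. In the translocon and ER to Golgi list it passed for 1 of 49 genes, with a lower response in A1. In A0 the medians of these lists were 1.28, 0.64 and 0.54. Hspa5 differed by -1.73 (adjusted p = 1.3e-05 from edgeR), since A0 had 2430 to 2633 CPM at exponential and 11650 to 20480 CPM at stationary phase. In Sesn2 the difference was -2.86 (adjusted p = 5.1e-10 from edgeR), with A0 moving from 8.28 to 10.7 CPM to 73.2 to 95.6 CPM while A1 stayed near 50 CPM. Hmox1 differed by -1.77 (adjusted p = 1.8e-05 from edgeR).

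The 5 genes with the largest difference above A0 were Ranbp3l (3.34), Dtna (2.77), Stra6 (2.67), Lat (2.63) and Pcp4l1 (2.32). Ranbp3l, related to a nuclear export factor, rose in A1 by 1.01 on the log2 scale and went from 69.98 to 260.3 CPM to 8.72 to 48.5 CPM in A0. Dtna, of the dystrobrevin family, did not pass in A1 (log2 change 0.25) and fell in A0. Stra6, a retinol transporter, Lat, an adaptor of lymphocyte signalling, and Pcp4l1 rose in A1 by 1.47, 0.64 and 1.85 and had log2 changes of -1.25, -2.02 and -0.52 in A0. The lowest differences were those of Col4a1 (-4.95), Cxcl1 (-3.36), Sesn2 (-2.86), Cxcl3 (-2.68) and Cckar (-2.13). That of Col4a1 turned to 0.60 without exponential culture 1 of A1, and that of Cxcl1 was -1.62 without exponential culture 2 and did not pass (adjusted p = 0.325 from edgeR). Without stationary culture 2 or 3 of A1, Cxcl1 did not pass (adjusted p = 0.0808 and 0.0722 from edgeR). Col4a1 did not pass without stationary culture 1, 2 or 3 (adjusted p = 0.087, 0.119 and 0.101 from edgeR). Cell cycle genes with p53 targets were also split by the test, 10 of 34 with a higher and 8 with a lower response in A1. All genes tested gave 5.04% higher and 3.9% lower. Ccng1 was among the 8 with a lower response, at 36.2 to 49.5 CPM and 37.4 to 61.9 CPM in A0 (difference -1.34, adjusted p = 0.00015 from edgeR).

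**Figure D4:**
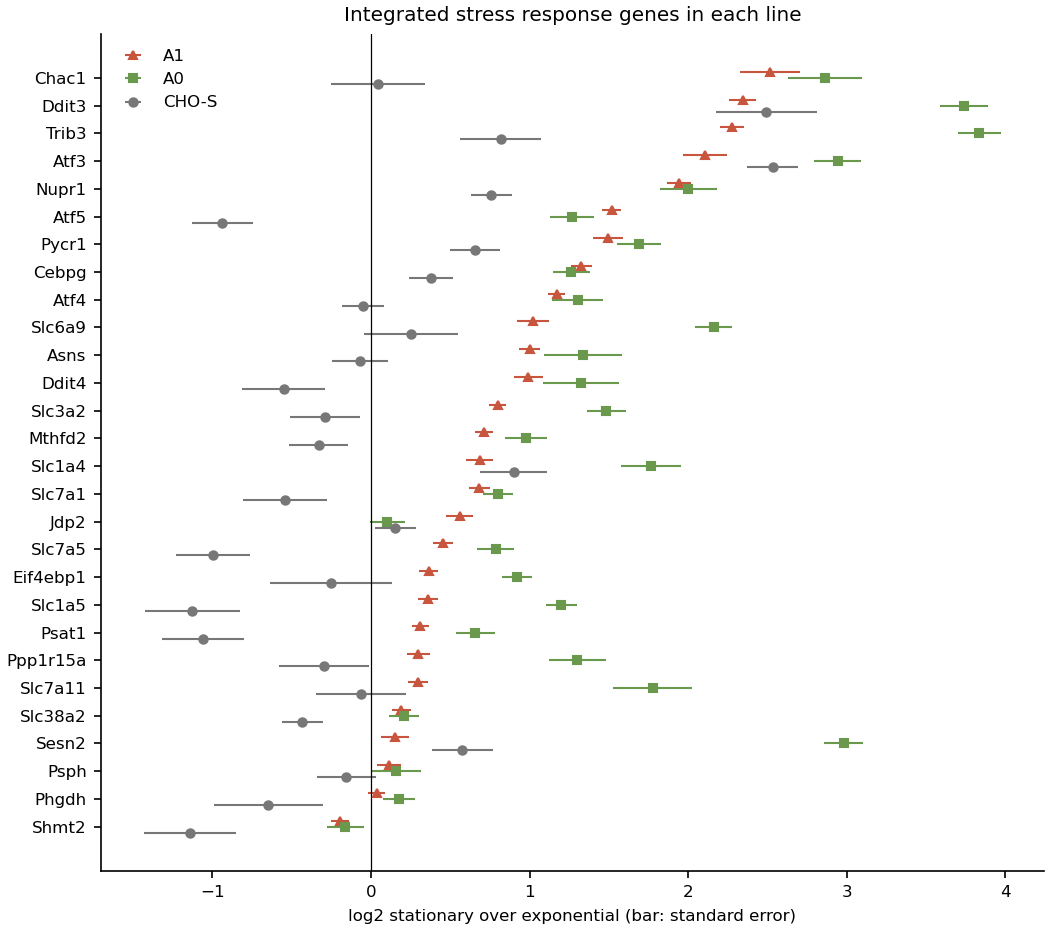
Log2 change from exponential to stationary phase of the integrated stress response genes with a mean of at least 5 CPM in A1, in A1 (triangles, 3 cultures a phase), A0 (squares, 4) and CHO-S (circles, 3), with the standard error from each line's own fit. The A1 values run from -0.20 for Shmt2 to 2.52 for Chac1, and Sesn2 is at 0.15 in A1 and 2.98 in A0.

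The response of CHO-S was set against the same A1 libraries. A stationary library of CHO-S had 1038026 counts, so counts of the interaction are also given without it. The interaction of line and phase passed for 1495 of 19662 genes (7.6%), 754 with a higher response in A1 (3.83%) and 741 with a lower one (3.77%), and for 4990 without that library (2553 higher and 2437 lower). It passed for 844 without stationary culture 2 of A1, 854 without exponential culture 3, 937 without exponential culture 1 and 970 without stationary culture 3. Of 6044 genes called in A1 and tested in CHO-S, 4409 (73.0%) had the same sign, with all 3 stationary libraries used. Among the 10494 genes with a mean of at least 5 CPM in A1, the interaction with all libraries passed for 692 with a higher and 621 with a lower response. For the integrated stress response the interaction was higher in A1 for 16 of 32 genes and lower for none (24 and 2 without the small library), with a median of 0.75 in A1 and -0.07 in CHO-S. The tRNA synthetases gave 10 of 20 higher and none lower (17 and 1), with medians of 0.28 and -0.36. Atf4 was among the genes past the test, with a difference of 1.22 (adjusted p = 0.00026 from edgeR). So was Chac1, which stood at 2.27 to 2.48 CPM and 0 to 2.84 CPM in CHO-S. Such levels are only a few counts in the library of 1038026 counts. Ddit3 rose in CHO-S too (log2 change 2.49), and its difference of -0.11 did not pass.

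In glycolysis and hypoxia genes the response was lower in A1 for 15 of 38 and higher for 3 (27 and 4 without the small library). Gapdh went from 5751 to 5795 CPM to 7407 to 10390 CPM in CHO-S, opposite to A1 (difference -1.04, adjusted p = 0.00048 from edgeR). Replication genes fell less in A1 in 17 of 40 and more in 1 (27 and 1). The largest differences above CHO-S were Iyd (2.93), Ctgf (2.90), Cd36 (2.60), Ranbp3l (2.47) and Atf5 (2.47), and the lowest were Aqp1 (-3.01), Btg2 (-2.83), Sorbs2 (-2.58), Aim2 (-2.48) and Bhlhe41 (-2.48). Iyd, an iodotyrosine deiodinase, rose in A1 by 1.70 on the log2 scale and was at or below 0.332 CPM in every CHO-S library. Ctgf, a matrix-associated growth factor, overlapped between the A1 phases (5.93 to 9.56 against 8.62 to 9.32 CPM) and went from 132.7 to 169.9 CPM to 13.6 to 27.7 CPM in CHO-S. Aqp1, a water channel, went from 65.4 to 86.1 CPM to 26.8 to 38.9 CPM in A1 and from 42.4 to 47.6 CPM to 63.7 to 190.9 CPM in CHO-S. Aim2, a sensor of DNA, rose in both lines, by 0.68 in A1 and 3.15 in CHO-S.

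**Figure D5:**
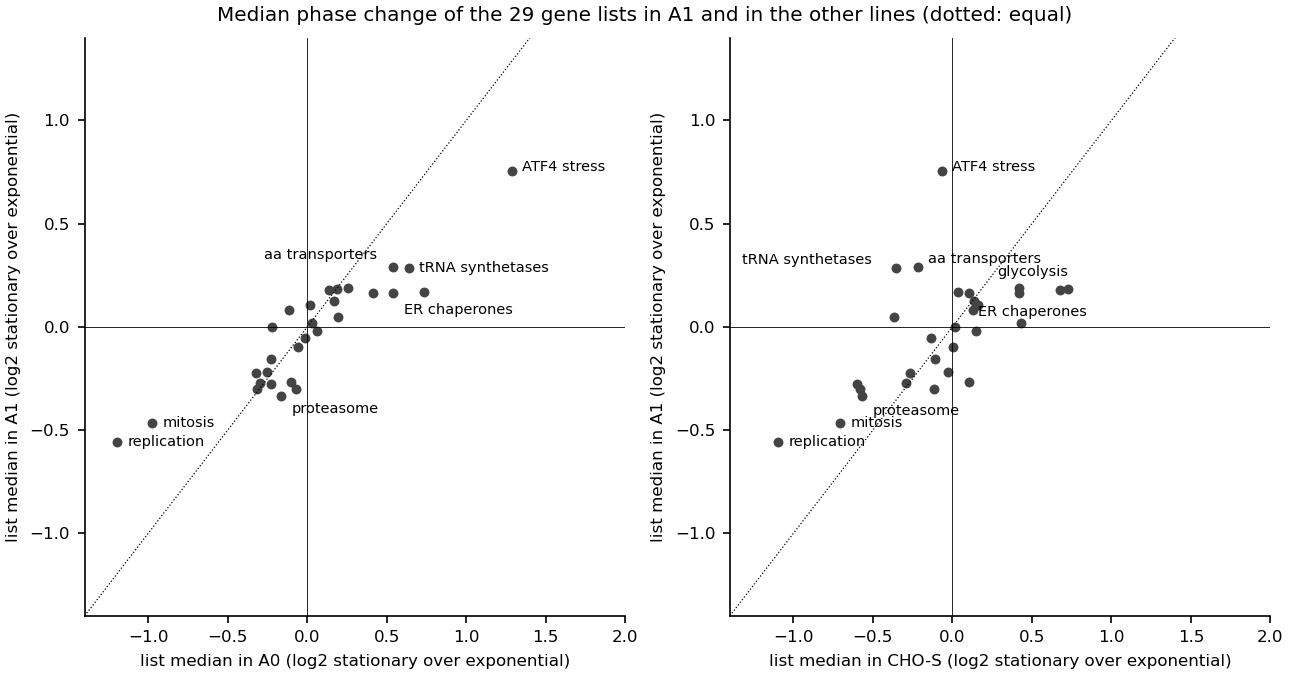
Median log2 change from exponential to stationary phase of each of the 29 gene lists in A1 (y axis) against A0 (left) and CHO-S (right), with the dotted line at equality. The integrated stress response list lies right of the line for A0 (0.75 in A1 and 1.28 in A0). It lies near 0 on the x axis for CHO-S (-0.07). The replication list lies left of the line in both.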

How the data were processed

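RNA of triplicate A1 batch cultures at each phase was sequenced from poly(A)-selected, stranded libraries. The authors aligned the reads to the Chinese hamster genome C_griseus_v1.0 with STAR 2.5.4b, counted them per gene with HTSeq-count 0.7.2 and deposited raw counts. The strand setting is not given in the sources used here, so overlapping and antisense genes are uncertain, and reads with more than 1 place were not counted. The 5 summary lines of HTSeq-count were left out of library sizes and tests. The two-sided quasi-likelihood test of edgeR 4.0.16 (R 4.3.3) after TMM normalization covered every gene that varied and had a count of 1 or more in 2 or more libraries. P-values were adjusted after Benjamini and Hochberg, and calls used 0.05. Only the 6 A1 libraries entered the phase fit. Line by phase interactions were fitted over the 4 groups concerned. The methods name triplicate flasks, but the labels do not tie libraries to them, so p-values measure the spread between these libraries. CPM are TMM-normalized. Alternatives used limma 3.58.1 and DESeq2 1.42.0, other scaling and filters, 1 fit of all groups, a replicate block and single libraries left out. For the interaction with A0, the first exponential library of each A0 culture was also used alone. Python 3.11.15 was used for the rest.

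The fits were tested on simulated data with known changes before use. Named genes were the 12 largest rises and falls with a gene symbol, an adjusted p under the threshold, at least 5 CPM and no overlap between phases, up to 4 members of each list by smallest adjusted p, CREB1 and the genes the study ties to it, GAPDH, and the 5 largest and 5 lowest differences from each other line. Other genes were named after their values were seen and are marked so. Some genes that the rule names are not reported here. The members, the 29 gene lists and this rule were chosen with earlier results of these data known. The lists hold 1186 symbols, of which 1086 were in the table, and symbols come from the table or, for 587 genes, from RefSeq genes on CriGri-PICRH-1.0. Coordinates are left out, as that assembly differs from the authors' genome. A search of promoters for motifs was planned and not run, since sequences were not used here.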

Additional observations from a re-analysis of the deposited data

Results flagged for a closer look

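Phase responses that differed between A1 and A0 by the interaction test (log2, A1 minus A0) were 3.34 for Ranbp3l, 2.77 for Dtna, 2.67 for Stra6, 2.63 for Lat and 2.32 for Pcp4l1 at the upper end, and -4.95 for Col4a1, -3.36 for Cxcl1, -2.86 for Sesn2, -2.68 for Cxcl3 and -2.13 for Cckar at the lower end. The Col4a1 value rests on exponential culture 1 of A1, without which it was 0.60, and that of Cxcl1 was -1.62 without exponential culture 2. Neither passed without stationary culture 2 or without stationary culture 3 of A1. Against CHO-S (log2, A1 minus CHO-S) they were 2.93 for Iyd, 2.90 for Ctgf, 2.60 for Cd36, 2.47 for Ranbp3l, 2.47 for Atf5, -3.01 for Aqp1, -2.83 for Btg2, -2.58 for Sorbs2, -2.48 for Aim2 and -2.48 for Bhlhe41. Without the CHO-S stationary library with the fewest counts, the Bhlhe41 difference was -1.69. All of these were chosen as the extremes of the test, so their sizes are a description.

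Among 20 groups of 4 A0 cultures examined for 1 outlying culture, 2 had one, and chance gives about 1 in 20. Both were A0 at exponential phase, Col4a1 with a gap of 0.838 of the range and Sesn2 with 0.881.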

How the results depend on the processing

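The count of genes changed with phase in A1 stayed within 1.5 times of the reported one under DESeq2, limma-voom, other scaling and other filters, and lay between 5144 and 5576 with 1 library left out. It was 2470 when all 6 groups shared 1 fit, of which 2469 were among the reported genes. The 2-fold count was 538 in DESeq2. The correlation of deviations between same-numbered A1 cultures was -0.19, -0.16 and 0.19. Between differently numbered ones it ran from -0.22 to 0.32. With 3 libraries a phase, these values cannot decide whether a number marks 1 flask. With the replicate block, 6346 genes were called for A1, 3435 for the interaction with A0 and 518 for that with CHO-S. The interaction with A0 gave 1003 to 1458 genes and that with CHO-S 844 to 1066 with 1 A1 library left out, and the latter 4990 without the CHO-S stationary library with the fewest counts. The causes were not tested. Of 153 named genes, 150 kept their direction in every setting and 125 also their side of the threshold. The other 3 reversed when 1 library was left out. Col4a1 ranged from -5.46 to 0.65 for phase and from -5.53 to 0.60 for the difference from A0, with the reversal without exponential culture 1. Cxcl1 for phase ranged from -0.83 without stationary culture 1 to 2.17, with -0.017 without exponential culture 3, and Bhlhe41 from -0.093 without stationary culture 2 to 0.14. Depth limits the low genes most, since 1 CPM is few counts in the smallest A1 library (6532373 counts on genes), and 238 of the 2-fold rises had a mean under 1 CPM.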
